A study of Mus musculus with 8 samples.

Results

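Matrix metalloproteinases (MMPs) and their tissue inhibitors (TIMPs) were followed by RNA sequencing in mouse bone marrow-derived macrophages, cells from which osteoclasts, the cells that resorb bone, can form. The genes were taken by symbol from a list of names: Mmp8, Mmp9, Mmp12, Mmp13, Mmp14, Mmp19, Timp1, Timp2 and Timp3, which are 9 of the 24940 genes measured. Primary marrow cells of C57BL/6 mice, 6 to 8 weeks old, were grown in M-CSF, the growth factor of this lineage, at 5 ng/ml for 16 h and then at 30 ng/ml for 3 days, and the adherent cells were used. The cells of all 4 groups carried a short hairpin RNA. There were 2 libraries with the hairpin labelled NCsh and no RANKL, 2 with NCsh and RANKL, 2 with the hairpin labelled TMBIM6sh and no RANKL, and 2 with TMBIM6sh and RANKL. RANKL is the cytokine that turns such cells into osteoclasts, and its dose was 100 ng/ml over 24 h. The title of the study links TMBIM6 deficiency to bone loss and faster osteoclast formation, so the comparisons ask what RANKL and the TMBIM6 hairpin do to the transcripts of these proteases.

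Several points limit the groups as models. The labels do not say what NCsh stands for or how the hairpins were delivered. With 1 hairpin per arm, a loss of Tmbim6 cannot be told apart from what else that hairpin does. One protocol text describes every sample as depleted and RANKL-treated, and the groups were read from the sample titles. Nothing says that the 2 libraries of a group came from separate mice or cultures, so the p-values measure only the spread between these libraries, which may be technical. Tmbim6 itself stood at 330.0 and 333.7 RPKM (tags scaled to exon length and to the depth of the library) in the NCsh libraries without RANKL and at 11.1 and 11.7 in the TMBIM6sh libraries without RANKL. With RANKL it stood at 308.9 and 320.9 against 10.0 and 10.5, so the 4 TMBIM6sh libraries lay 29.0-fold and 30.8-fold lower on average.

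MMPs are zinc-dependent proteases, made as inactive proforms, that cut collagens, elastin and other matrix proteins as well as cytokines and receptors at the cell surface. Collagenases open intact collagen fibres, gelatinases clear the unwound chains, and membrane-type MMPs act at the cell surface and switch on other proforms. TIMPs bind the active site of MMPs and block it. In bone, osteoclasts and their precursors are known for MMP9 and MMP14, and macrophages for the elastase MMP12.

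Promoters are shown for Mmp12 and Mmp13, which the TMBIM6 hairpin lowered most, and for Timp2, the most abundant inhibitor gene, because these windows differ in base make-up. They were chosen after the values were seen. They cover 300 bases, 250 before and 50 from the listed start, and come from RefSeq on GRCm38.p6, where 7 of the 9 genes matched with 8 entries. Capitals in the first 2 mark the AP-1 motif TGANTCA, searched on both strands, and the TATA box TATAAA, searched on the strand of the gene. Capitals in the third mark the GC box GGGCGG, searched on both strands.
Mmp12 promoter, chr9:7347124-7347423, plus strand: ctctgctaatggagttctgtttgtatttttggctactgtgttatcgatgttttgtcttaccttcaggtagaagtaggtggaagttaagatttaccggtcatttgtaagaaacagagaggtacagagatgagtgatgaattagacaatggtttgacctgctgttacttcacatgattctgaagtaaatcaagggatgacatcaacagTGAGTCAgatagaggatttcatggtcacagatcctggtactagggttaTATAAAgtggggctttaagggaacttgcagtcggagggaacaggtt
Mmp13 promoter, chr9:7272264-7272563, plus strand: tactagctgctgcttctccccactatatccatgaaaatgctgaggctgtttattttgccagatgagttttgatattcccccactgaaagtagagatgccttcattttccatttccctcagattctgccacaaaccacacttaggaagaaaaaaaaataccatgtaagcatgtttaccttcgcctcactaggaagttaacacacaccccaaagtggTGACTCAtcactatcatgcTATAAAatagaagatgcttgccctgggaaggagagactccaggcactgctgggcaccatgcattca
Timp2 promoter, chr11:118355362-118355661, minus strand: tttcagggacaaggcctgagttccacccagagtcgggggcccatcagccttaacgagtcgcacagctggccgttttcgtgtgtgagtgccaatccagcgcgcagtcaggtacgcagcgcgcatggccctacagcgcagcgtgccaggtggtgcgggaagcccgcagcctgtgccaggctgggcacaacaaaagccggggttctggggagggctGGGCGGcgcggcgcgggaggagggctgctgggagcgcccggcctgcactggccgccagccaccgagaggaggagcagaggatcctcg
The AP-1 motif begins 44 bases before the listed start of Mmp12 and 35 bases before that of Mmp13. The TATA box begins 16 bases before the start of Mmp13, and in Mmp12 it begins at base 5 from the listed start. Among the 32851 promoters of this length, 7.81% hold the AP-1 motif, 8.32% hold TATAAA on the gene's strand and 35.7% hold GGGCGG. Of the 7 matched genes, 2 held an AP-1 motif in a window searched, namely this pair. Mmp12 has another entry, with a listed start at position 7344397, whose window holds no AP-1 motif, no TATA box and no CG pair. Mmp9 and Mmp19 had no entry, so their promoters were not searched. The Timp2 window holds 25 CG pairs and that of Timp3 holds 24, against 3 in the Mmp12 window shown, 1 in that of Mmp13 and a median of 7 over all promoters. Mmp8 has 4, Timp1 has 8 and Mmp14 has 10. These matches describe the letters and do not show that a factor was bound.

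Of the 9 genes, 8 reached at least 1 RPKM in at least 2 libraries and were tested among 11040 genes with limma, on log2(RPKM + 1) with p-values adjusted by the Benjamini-Hochberg method. A call means an adjusted p under 0.05. In NCsh libraries RANKL changed 2 of the 8, where 15.0% of all tested genes were called: 1 was higher (11.0% of all) and 1 lower (3.98% of all). In TMBIM6sh libraries it also changed 2 of the 8, where 15.4% of all were called: 1 was higher (8.53% of all) and 1 lower (6.89% of all). The TMBIM6 hairpin changed 5 of the 8 without RANKL, where 24.2% of all were called: 1 was higher (10.4% of all) and 4 lower (13.8% of all). With RANKL it changed 6 of the 8, where 28.6% of all were called: 2 were higher (8.93% of all) and 4 lower (19.7% of all). The 2 groups compared did not overlap for 5, 5, 5 and 7 of the 8 genes in these comparisons, and for 56.1%, 58.3%, 61.6% and 66.4% of all tested genes, so the lack of overlap alone says little. The shares higher and lower depend on the scaling. With median-ratio scaling the 1214 higher and 439 lower genes of RANKL in NCsh became 800 and 836, and the 986 and 2171 of the hairpin with RANKL became 1580 and 1680. The median log2 difference of the 8 was -0.16 without RANKL, where that of all tested genes was -0.02, and -0.14 with RANKL, where that of all tested genes was -0.07. The interaction, which asks whether the RANKL response differed between the hairpins, called 0 of the 8 and 0.00906% of all genes. Of the 8, Mmp9 had an unadjusted p under 0.05, and limma voom on recovered tags called none of them. Over all genes, 1 gene was called with limma on log2 values, where 857 had an unadjusted p under 0.05, and 1 gene with limma voom, where 1014 did.

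**Figure D1:**
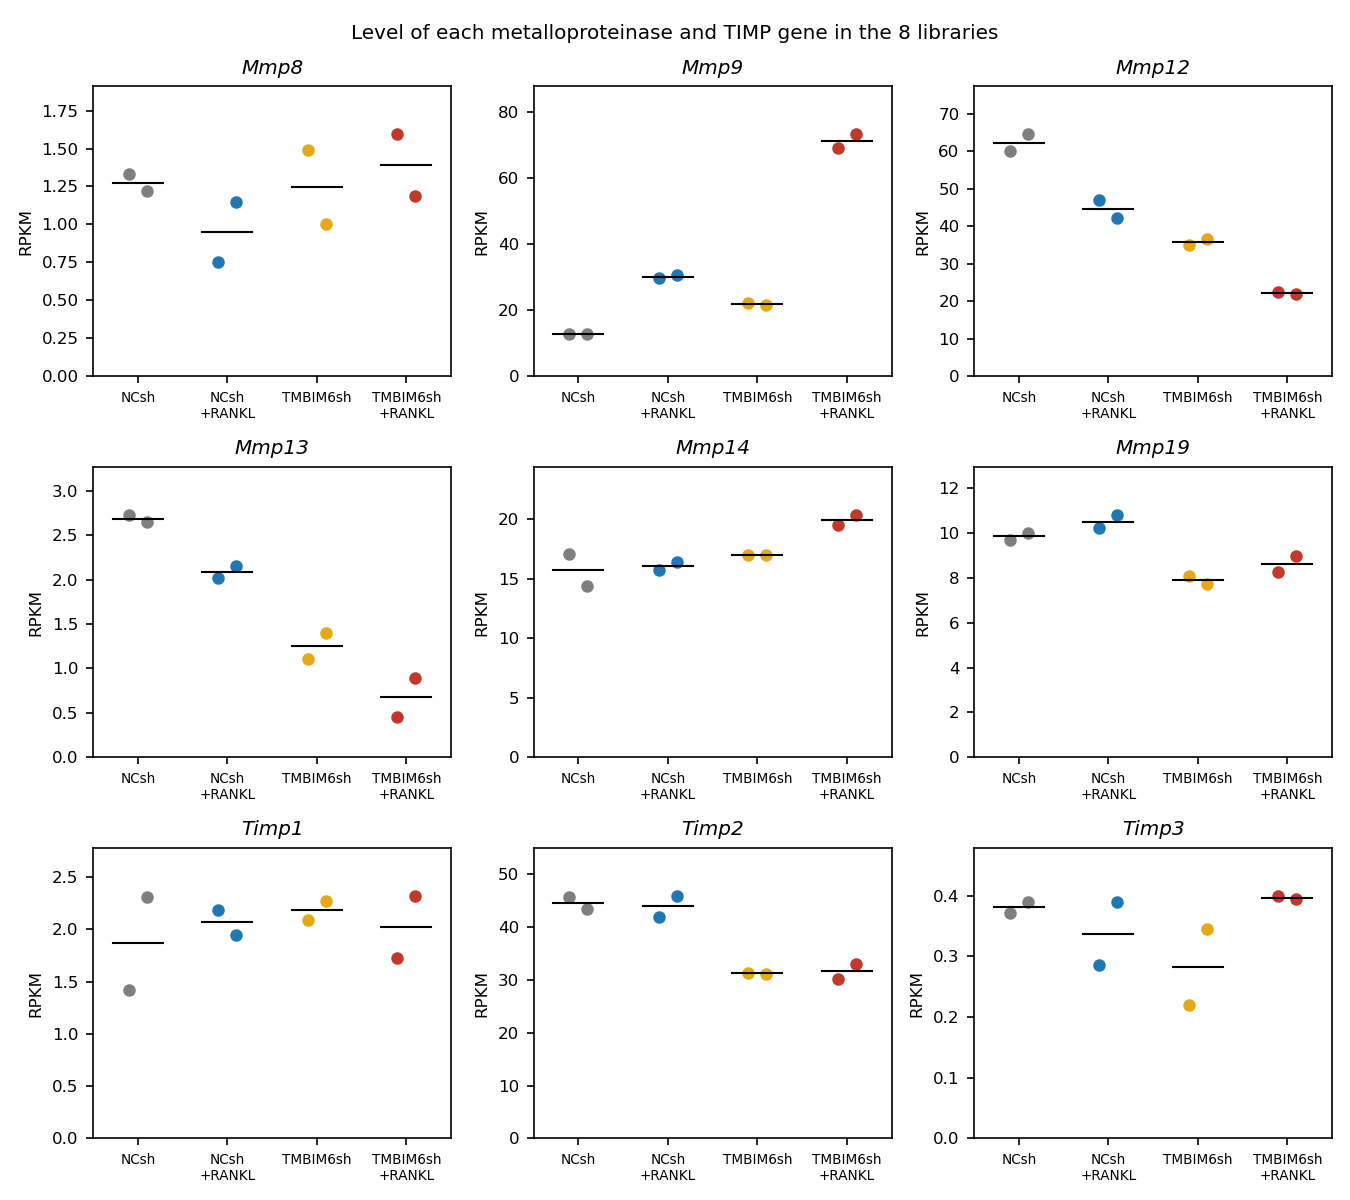
Level of each of the 9 genes (vertical axis, RPKM, starting at 0) in the 4 groups. Points are single libraries and lines are the means of 2 libraries: from NCsh to TMBIM6sh with RANKL the group mean of Mmp9 runs from 12.7 to 71.4 RPKM, that of Mmp12 from 62.2 to 22.2 and that of Mmp13 from 2.68 to 0.675.

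Mmp9 encodes gelatinase B, which cuts denatured collagen and the type IV collagen of basement membranes. It was the gene of the set that was called higher in every comparison of 2 groups. Its level was 12.7 and 12.7 RPKM in NCsh libraries without RANKL and 29.7 and 30.6 with RANKL. With the TMBIM6sh hairpin it was 22.2 and 21.6 RPKM without RANKL and 69.4 and 73.4 with RANKL. The 4 groups did not overlap, and the highest pair lay 5.61-fold above the lowest in mean RPKM. RANKL raised Mmp9 2.37-fold in NCsh libraries, a log2 difference of 1.18 ± 0.06 (SE; adjusted p = 8.28e-06). Under TMBIM6sh it raised Mmp9 3.26-fold, a log2 difference of 1.66 ± 0.06 (adjusted p = 5.02e-07). The TMBIM6 hairpin raised it 1.72-fold without RANKL (log2 difference 0.74 ± 0.06, adjusted p = 4.51e-05) and 2.37-fold with RANKL (1.22 ± 0.06, adjusted p = 3.45e-06). Both single changes were thus present in each background. The RANKL response was larger in TMBIM6sh libraries by 0.48 ± 0.08 on the log2 scale, with an unadjusted p of 0.000247 that did not pass over all genes (limma, adjusted p = 0.51; 0.12 to 0.963 under the alternatives). A difference between the hairpins in this response is therefore not shown.

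Mmp9 also moved upward among the genes of these cells. It ranked 4343 of 24940 by mean RPKM in NCsh libraries without RANKL and 775 in TMBIM6sh libraries with RANKL. Since whole cultures were sequenced, more cells with the transcript and more transcript per cell cannot be told apart, here and for every value that follows. MMP9 is also made by neutrophils, so their markers were read in the same libraries. Of 11 neutrophil markers 1 reached 1 RPKM, S100a8, a calcium-binding protein. It was lower in TMBIM6sh libraries, by 0.86 ± 0.16 on the log2 scale without RANKL (adjusted p = 0.00351) and by 0.85 ± 0.16 with RANKL (adjusted p = 0.00326). The sum of the 11 markers was 22.8 to 28.4 RPKM in NCsh libraries without RANKL and 23.2 to 27.9 with RANKL, against 11.9 to 15.9 and 12.6 to 15.1 in TMBIM6sh libraries. Nearly all of each sum was S100a8, at 11.3 to 27.7 RPKM, and every other marker stayed at or under 0.35 RPKM. The sum thus follows that 1 gene. Ly6g and Retnlg, also among these markers, were at 0 in every library, and S100a9 stayed at or under 0.146 RPKM.

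Mmp12 encodes macrophage metalloelastase, which cuts elastin, and it took the opposite course. Its level was 60.0 and 64.4 RPKM in NCsh libraries without RANKL, where no other gene of the set was as high. It was 47.1 and 42.1 RPKM in NCsh libraries with RANKL and 34.9 and 36.5 in TMBIM6sh libraries without RANKL. The lowest values were 22.5 and 21.9 RPKM, in TMBIM6sh libraries with RANKL, and the 4 groups did not overlap. RANKL lowered Mmp12 under both hairpins, by a log2 difference of -0.47 ± 0.07 with NCsh (adjusted p = 0.00227) and of -0.66 ± 0.07 with TMBIM6sh (adjusted p = 0.000278). The TMBIM6 hairpin lowered it 1.74-fold without RANKL (-0.78 ± 0.07, adjusted p = 7.85e-05) and 2.01-fold with RANKL (-0.97 ± 0.07, adjusted p = 2.45e-05). Between the groups farthest apart the mean was 2.8-fold lower. The response under TMBIM6sh minus that under NCsh was -0.19 on the log2 scale, with a 95% interval of -0.41 to 0.04 (limma, adjusted p = 0.672).

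**Figure D2:**
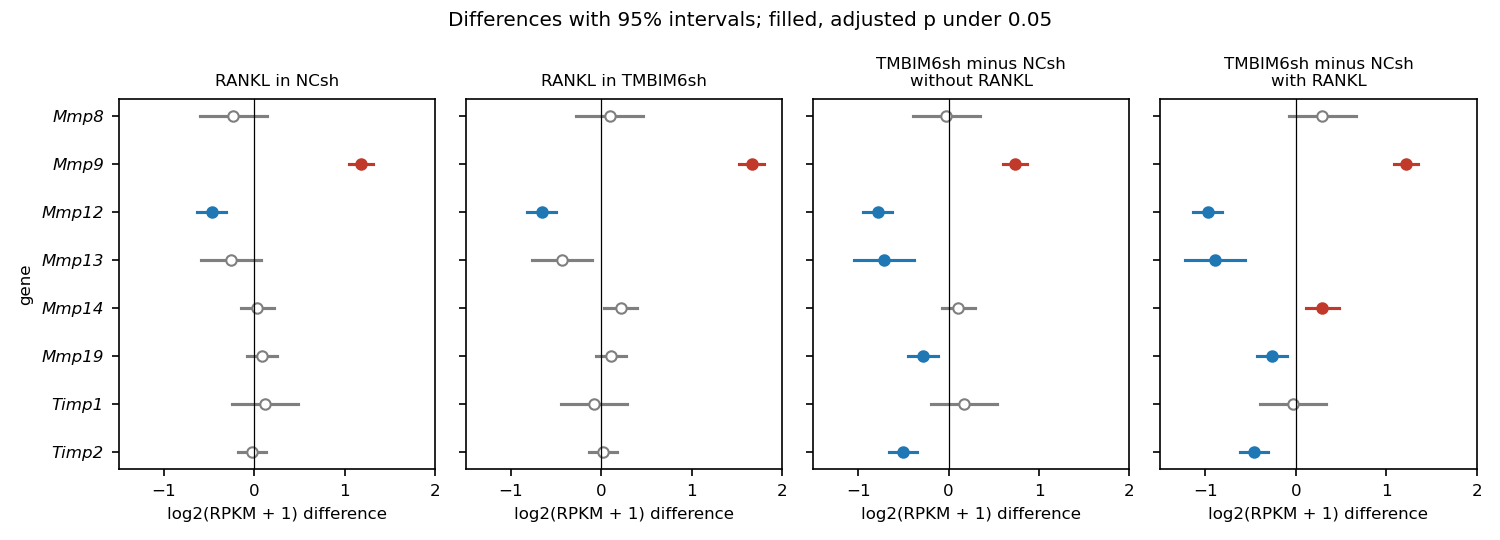
Difference in log2(RPKM + 1) of the 8 tested genes (horizontal axis) in the 4 comparisons of 2 groups, with 95% intervals from limma. Filled points passed an adjusted p of 0.05, red higher and blue lower. Mmp9 is filled right of 0 and Mmp12 filled left of 0 in all 4 panels, and Timp2 is filled left of 0 in both hairpin panels.

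The 2 collagenase genes were low. Mmp13 encodes collagenase 3, which opens intact fibrillar collagen, and its level was 2.72 and 2.65 RPKM in NCsh libraries without RANKL and 2.02 and 2.15 with RANKL. In TMBIM6sh libraries it was 1.10 and 1.40 RPKM without RANKL and 0.453 and 0.897 with RANKL. Behind these values stood 31 to 201 tags per library, and every TMBIM6sh library lay below every NCsh library. The TMBIM6 hairpin lowered the mean 2.15-fold without RANKL (log2 difference -0.72 ± 0.15, adjusted p = 0.0075) and 3.09-fold with RANKL (-0.89 ± 0.15, adjusted p = 0.00199). The log2(RPKM + 1) scale understates changes of genes this low. Without replicate 1 of the TMBIM6sh libraries lacking RANKL, the hairpin call without RANKL was lost (adjusted p = 0.0616). The RANKL difference in TMBIM6sh libraries missed the threshold (-0.44 ± 0.15, adjusted p = 0.0814). It passed without replicate 2 of the TMBIM6sh libraries with RANKL (adjusted p = 0.0366) and with limma voom (adjusted p = 0.023). Without replicate 1 of the same group it shrank to -0.24 ± 0.15 (adjusted p = 0.368). In NCsh libraries the RANKL difference was -0.26 ± 0.15 (adjusted p = 0.288).

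Mmp8 encodes the collagenase best known from neutrophils. It stood at 1.33 and 1.22 RPKM in NCsh libraries without RANKL and at 0.756 and 1.146 with RANKL. Its TMBIM6sh values were 1.49 and 1.01 RPKM without RANKL and 1.59 and 1.19 with RANKL. With 47 to 100 tags per library, replicates of a group differed about as much as the groups, and no comparison was called. Among the 4 comparisons of 2 groups its widest difference, between the hairpins with RANKL, was 0.30 on the log2 scale with a 95% interval of -0.08 to 0.66 (limma, adjusted p = 0.211).

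Mmp14 encodes a membrane-type MMP that cuts collagen at the cell surface and, together with TIMP2, activates the proform of the gelatinase MMP2. Its level was 17.1 and 14.4 RPKM in NCsh libraries without RANKL and 15.7 and 16.4 with RANKL. In TMBIM6sh libraries it was 17.0 and 17.0 RPKM without RANKL and 19.5 and 20.3 with RANKL. The last pair lay above the other 6 libraries. The TMBIM6 hairpin raised Mmp14 1.24-fold with RANKL (log2 difference 0.29 ± 0.08, adjusted p = 0.0243), a call lost when any 1 of the 4 libraries compared was left out (adjusted p = 0.0678 to 0.127) and with no filter on low genes (adjusted p = 0.0643). Without RANKL the hairpin difference was 0.11 ± 0.08 (adjusted p = 0.375). RANKL gave a difference of 0.22 ± 0.08 in TMBIM6sh libraries (adjusted p = 0.111), which passed without either NCsh library lacking RANKL (adjusted p = 0.0377 without replicate 1, 0.0365 without replicate 2) and with voom (adjusted p = 0.0378). In NCsh libraries its difference was 0.03 ± 0.08 (adjusted p = 0.834).

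Mmp19, which encodes a secreted MMP able to cut basement membrane proteins, showed a small step with the hairpin. It stood at 9.71 and 10.0 RPKM in NCsh libraries without RANKL and at 10.2 and 10.8 with RANKL. In TMBIM6sh libraries it stood at 8.09 and 7.75 RPKM without RANKL and at 8.25 and 9.0 with RANKL. Every TMBIM6sh library was lower than every NCsh library. The hairpin lowered it 1.25-fold without RANKL (log2 difference -0.28 ± 0.07, adjusted p = 0.0215) and 1.22-fold with RANKL (-0.26 ± 0.07, adjusted p = 0.0279). The call without RANKL was lost without NCsh replicate 2 (adjusted p = 0.0788) or either TMBIM6sh replicate (0.0751 without replicate 1, 0.129 without replicate 2). The call with RANKL was lost without either NCsh replicate (adjusted p = 0.0698 and 0.141), without TMBIM6sh replicate 1 (0.149) and with median-ratio scaling (0.0694). The counting did not use strand. In the GENCODE M21 annotation, with all isoforms taken, 789 exon bases of Mmp19 lie opposite exons of Tmem198b, listed at 3.65 to 5.73 RPKM. Reads of this pair may be mixed there. The counts used 1 RefSeq entry per gene, and whether those entries overlap was not tested.

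Among the inhibitors, Timp2 carried nearly all of the level. TIMP2 blocks most MMPs and also escorts the proform of MMP2 to MMP14. Its level was 45.7 and 43.5 RPKM in NCsh libraries without RANKL and 42.0 and 45.8 with RANKL. It was 31.3 and 31.2 RPKM in TMBIM6sh libraries without RANKL and 30.2 and 33.1 with RANKL. The values split by hairpin with no overlap and overlapped between RANKL and no RANKL under either hairpin. The hairpin lowered Timp2 1.43-fold without RANKL (log2 difference -0.50 ± 0.07, adjusted p = 0.000817) and 1.39-fold with RANKL (-0.46 ± 0.07, adjusted p = 0.0011). The RANKL difference was -0.02 with a 95% interval of -0.18 to 0.13 in NCsh libraries (limma, adjusted p = 0.858). In TMBIM6sh libraries it was 0.01 with an interval of -0.14 to 0.17 (limma, adjusted p = 0.923).

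Timp1, whose product also binds the proform of MMP9, stood at 1.42 and 2.31 RPKM in NCsh libraries without RANKL and at 2.19 and 1.95 with RANKL. The TMBIM6sh libraries had 2.09 and 2.27 RPKM without RANKL and 1.73 and 2.32 with RANKL. All groups overlapped, with 33 to 58 tags per library, and in the 4 comparisons of 2 groups the log2 differences ran from -0.08 to 0.17 with none called. Timp3, whose product binds to the matrix and also blocks ADAM17, lay between 0.220 and 0.399 RPKM in the 8 libraries (28 to 52 tags) and was not tested. In the GENCODE M21 annotation 1733 exon bases of Timp3 lie opposite exons of Syn3, which was listed at 0.06 to 0.184 RPKM. There 157 exon bases of Mmp12 lie opposite exons of Mmp1b, which was at 0 in every library.

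Set on one scale, the 6 MMP genes summed to between 84.8 and 126.6 RPKM, and the make-up of the sum differed between groups. It was 103.5 and 105.4 RPKM in NCsh libraries without RANKL and 105.5 and 103.3 with RANKL. It was 84.8 and 85.2 RPKM in TMBIM6sh libraries without RANKL and 121.7 and 126.6 with RANKL, so it was the lowest of the 4 groups in the former and the highest in the latter. Mmp12 made up 57.9% and 61.1% of the sum in NCsh libraries without RANKL, and Mmp9 12.3% and 12.1%. In TMBIM6sh libraries with RANKL the shares were 18.5% and 17.3% for Mmp12 and 57.0% and 57.9% for Mmp9. The other groups stood between, with Mmp12 at 40.8% to 44.6% and Mmp9 at 25.3% to 29.7%. The ratio of Mmp9 to Mmp12 was 0.212 and 0.197 in the first of these groups and 3.08 and 3.36 in the last. RPKM is a share of a library's tags per length of transcript, so these sums compare transcript levels and not enzyme activity.

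**Figure D3:**
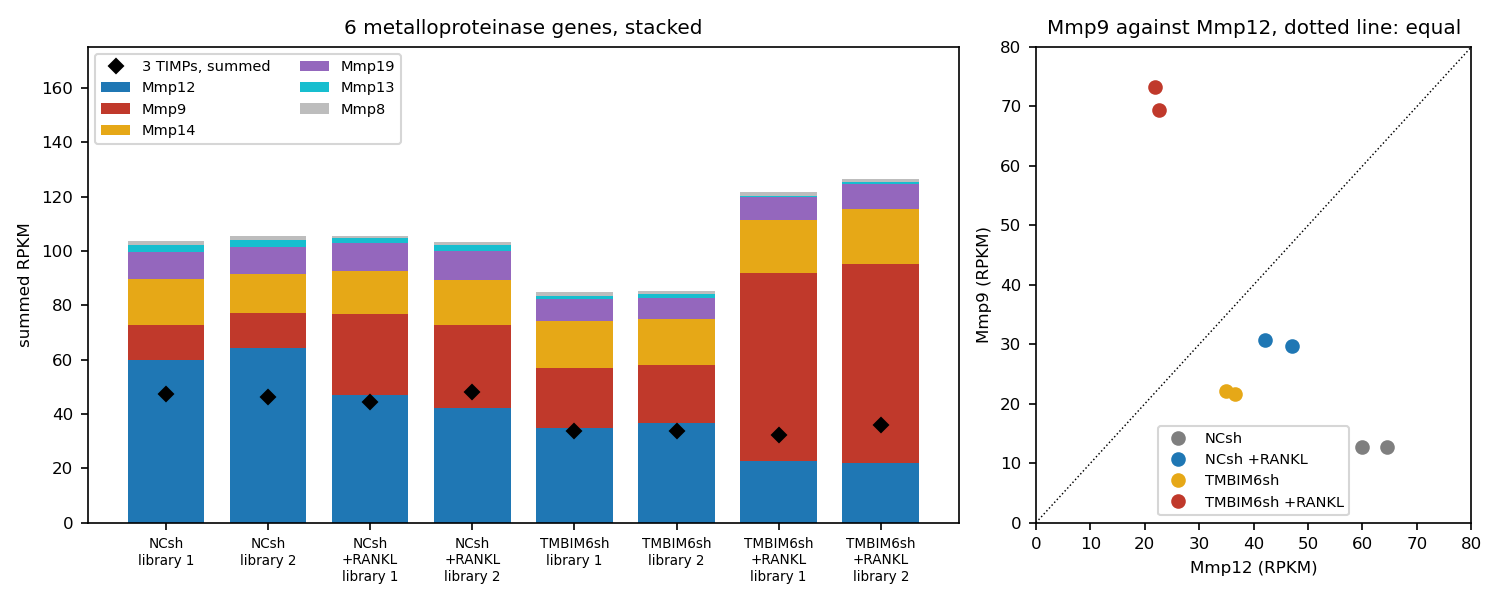
Left, RPKM of the 6 MMP genes stacked for each library (vertical axis from 0), with black diamonds for the sum of the 3 TIMP genes. Right, Mmp9 (vertical axis, RPKM) against Mmp12 (horizontal axis, RPKM) per library: the TMBIM6sh libraries with RANKL are the ones above the dotted line of equal levels.

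The sum of the 3 TIMP genes was 44.5 to 48.2 RPKM in the 4 NCsh libraries and 32.3 to 35.8 in the 4 TMBIM6sh libraries, and Timp2 made up 92.3% to 96.2% of it. The sum of the MMP genes was 2.18 and 2.28 times that of the TIMP genes in NCsh libraries without RANKL and 2.37 and 2.14 times with RANKL. Under TMBIM6sh it was 2.52 and 2.52 times without RANKL and 3.77 and 3.54 times with RANKL. The ratio of Mmp14 to Timp2, whose products act together on MMP2, was 0.331 to 0.374 in NCsh libraries and 0.543 to 0.645 in TMBIM6sh libraries. These sums and ratios are descriptions and were given no test.

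The order of levels changed with the groups. In NCsh libraries without RANKL it ran Mmp12, Timp2, Mmp14, Mmp9, Mmp19, Mmp13, Timp1, Mmp8 and Timp3, and the libraries of no gene overlapped those of the next. RANKL in NCsh libraries brought Mmp9 above Mmp14, and there the libraries of Mmp12 and Timp2 overlapped, as did those of Mmp13 and Timp1. In TMBIM6sh libraries without RANKL the first 5 were Mmp12, Timp2, Mmp9, Mmp14 and Mmp19, and Mmp13 and Mmp8 overlapped. In TMBIM6sh libraries with RANKL Mmp9 came first, ahead of Timp2, Mmp12 and Mmp14, and Mmp13 was next to last. No neighbours overlapped in that group.

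Of the 18 other MMP and TIMP genes of the mouse table, 2 were tested and neither was called in any comparison. Mmp24, a membrane-type MMP, lay between 2.63 and 3.48 RPKM. Mmp27 lay between 0.757 and 1.91 RPKM, with a hairpin difference of -0.33 ± 0.14 on the log2 scale without RANKL (unadjusted p = 0.0418, adjusted p = 0.121) and a RANKL difference of -0.32 ± 0.14 in NCsh libraries (unadjusted p = 0.0474, adjusted p = 0.16). The remaining 16 stayed at or under 0.398 RPKM, the value of Mmp2, the gelatinase that MMP14 and TIMP2 activate, and 5 were at 0 in all libraries. Mmp13, Mmp12 and Mmp8 lie in a run of 10 MMP genes on chromosome 9 between positions 7272514 and 7699585 of mm10. Of these 10, Mmp13, Mmp12, Mmp8 and Mmp27 reached 1 RPKM, and Mmp1b, Mmp3, Mmp1a and Mmp7 were at 0. Mmp12 thus stood alone in level within the run, at 21.9 to 64.4 RPKM beside neighbours at or under 2.72.

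Genes that act around the MMPs were read from 4 further lists. Among 33 activators, inhibitors and binding partners 18 were tested. RANKL raised 1 and lowered 2 of them in NCsh libraries and raised 2 and lowered 5 in TMBIM6sh libraries, and the hairpin raised 3 and lowered 4 without RANKL and raised 2 and lowered 4 with RANKL. Over all tested genes 15.0%, 15.4%, 24.2% and 28.6% were called in these comparisons. Plau, the urokinase that makes plasmin and through it activates proforms, was 59.5 RPKM in NCsh libraries without RANKL and 139 in TMBIM6sh libraries (log2 difference 1.21 ± 0.07, adjusted p = 1.3e-05). RANKL lowered it, with log2 differences of -0.83 ± 0.07 with NCsh (adjusted p = 0.000172) and -1.16 ± 0.07 with TMBIM6sh (adjusted p = 1.61e-05), and the hairpin raised it with RANKL too (0.88 ± 0.07, adjusted p = 4.23e-05). Like Mmp9 it was higher with the hairpin, and unlike Mmp9 it was lower with RANKL. Plaur, the urokinase receptor, fell with RANKL (-0.30 ± 0.08 in NCsh, adjusted p = 0.0275; -0.38 ± 0.08 in TMBIM6sh, adjusted p = 0.00839). Cd44, a hyaluronan receptor that can hold MMP9 and MMP14 at the surface, rose with RANKL, by 0.47 ± 0.06 with NCsh (adjusted p = 0.00107) and 0.46 ± 0.06 with TMBIM6sh (adjusted p = 0.000822). It fell with the hairpin without RANKL (-0.57 ± 0.06, adjusted p = 0.000179) and with RANKL (-0.59 ± 0.06, adjusted p = 0.000139). Itgav, an integrin chain, fell with the hairpin without RANKL (-0.44 ± 0.08, adjusted p = 0.00513) and with it (-0.51 ± 0.08, adjusted p = 0.00192). Rhbdf2, an escort of ADAM17, fell with the hairpin under RANKL (-0.66 ± 0.08, adjusted p = 0.000434) and without RANKL (-0.39 ± 0.08, adjusted p = 0.00838), and with RANKL in TMBIM6sh libraries (-0.29 ± 0.08, adjusted p = 0.0421).

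The median log2 difference of these 18 partner genes was -0.15 for RANKL in NCsh libraries, -0.18 for RANKL in TMBIM6sh libraries, -0.07 for the hairpin without RANKL and -0.11 with RANKL. The medians over all tested genes were 0.06, 0.02, -0.02 and -0.07 in the same order. Of 28 ADAM, ADAMTS and ADAMTS-like genes, a group that includes proteases that shed membrane proteins or cut proteoglycans, 7 were tested. RANKL lowered 1 in TMBIM6sh libraries. In NCsh libraries limma called none, with Adam15 nearest (-0.21 ± 0.06, unadjusted p = 0.00791, adjusted p = 0.0518). The hairpin raised 2 of the 7 without RANKL, where 24.2% of all tested genes were called, and raised 1 and lowered 4 with RANKL, where 28.6% were. For RANKL the shares of all genes were 15.0% in NCsh and 15.4% in TMBIM6sh libraries. Their medians were 0.01, -0.13, -0.08 and -0.22. Adam15 rose with the hairpin, from 155 to 237 RPKM without RANKL (0.61 ± 0.06, adjusted p = 0.000154) and from 134 to 202 with RANKL (0.59 ± 0.06, adjusted p = 0.000172), and it fell with RANKL in TMBIM6sh libraries (-0.23 ± 0.06, adjusted p = 0.033). Adam17, the protease that releases TNF, rose with the hairpin without RANKL (0.29 ± 0.05, adjusted p = 0.00462). With RANKL the hairpin lowered the ADAMTS-like gene Adamtsl5 (-0.39 ± 0.09, adjusted p = 0.0108) and Adam9 (-0.23 ± 0.06, adjusted p = 0.0198).

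Known MMP substrates numbered 40, of which 23 were tested. RANKL raised 3 and lowered 7 in NCsh libraries and raised 3 and lowered 8 in TMBIM6sh libraries. The hairpin raised 1 and lowered 4 without RANKL and raised 1 and lowered 3 with RANKL. Of all tested genes 15.0%, 15.4%, 24.2% and 28.6% were called in these comparisons, and RANKL lowered 3.98% of all in NCsh and 6.89% in TMBIM6sh libraries. The medians were 0.05, -0.10, 0.03 and -0.05 in the order given above. Icam1, an adhesion receptor, rose with RANKL 2.23-fold in NCsh libraries (1.14 ± 0.07, adjusted p = 2.78e-05) and 2.07-fold in TMBIM6sh libraries (1.03 ± 0.07, adjusted p = 2.2e-05). The chemokine Ccl7 fell 2.41-fold with RANKL in NCsh libraries (-1.18 ± 0.07, adjusted p = 2.84e-05). It also fell with RANKL under TMBIM6sh (-0.89 ± 0.07, adjusted p = 6.56e-05) and with the hairpin without RANKL (-0.47 ± 0.07, adjusted p = 0.00154). Igfbp4, which binds insulin-like growth factors, fell with RANKL under both hairpins (-0.68 ± 0.06 with NCsh, adjusted p = 0.000172, and -0.73 ± 0.06 with TMBIM6sh, adjusted p = 6.51e-05). The cytokine Tnf fell with RANKL under NCsh (-0.49 ± 0.06, adjusted p = 0.00103) and TMBIM6sh (-0.79 ± 0.06, adjusted p = 5.41e-05). It rose with the hairpin without RANKL (0.60 ± 0.06, adjusted p = 0.000157) and with it (0.30 ± 0.06, adjusted p = 0.00569). Spp1, the bone matrix protein osteopontin, fell with the hairpin from 399 to 243 RPKM without RANKL (-0.71 ± 0.07, adjusted p = 0.000176) and from 268 to 143 with RANKL (-0.90 ± 0.07, adjusted p = 4.03e-05). It fell with RANKL as well (-0.57 ± 0.07 under NCsh, adjusted p = 0.00119, and -0.77 ± 0.07 under TMBIM6sh, adjusted p = 0.000165). Sdc1, a surface proteoglycan, fell with the hairpin by less (-0.45 ± 0.06 without RANKL, adjusted p = 0.000648; -0.29 ± 0.06 with RANKL, adjusted p = 0.00526) and rose with RANKL (0.51 ± 0.06 under NCsh, adjusted p = 0.000719, and 0.66 ± 0.06 under TMBIM6sh, adjusted p = 0.000111).

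**Figure D4:**
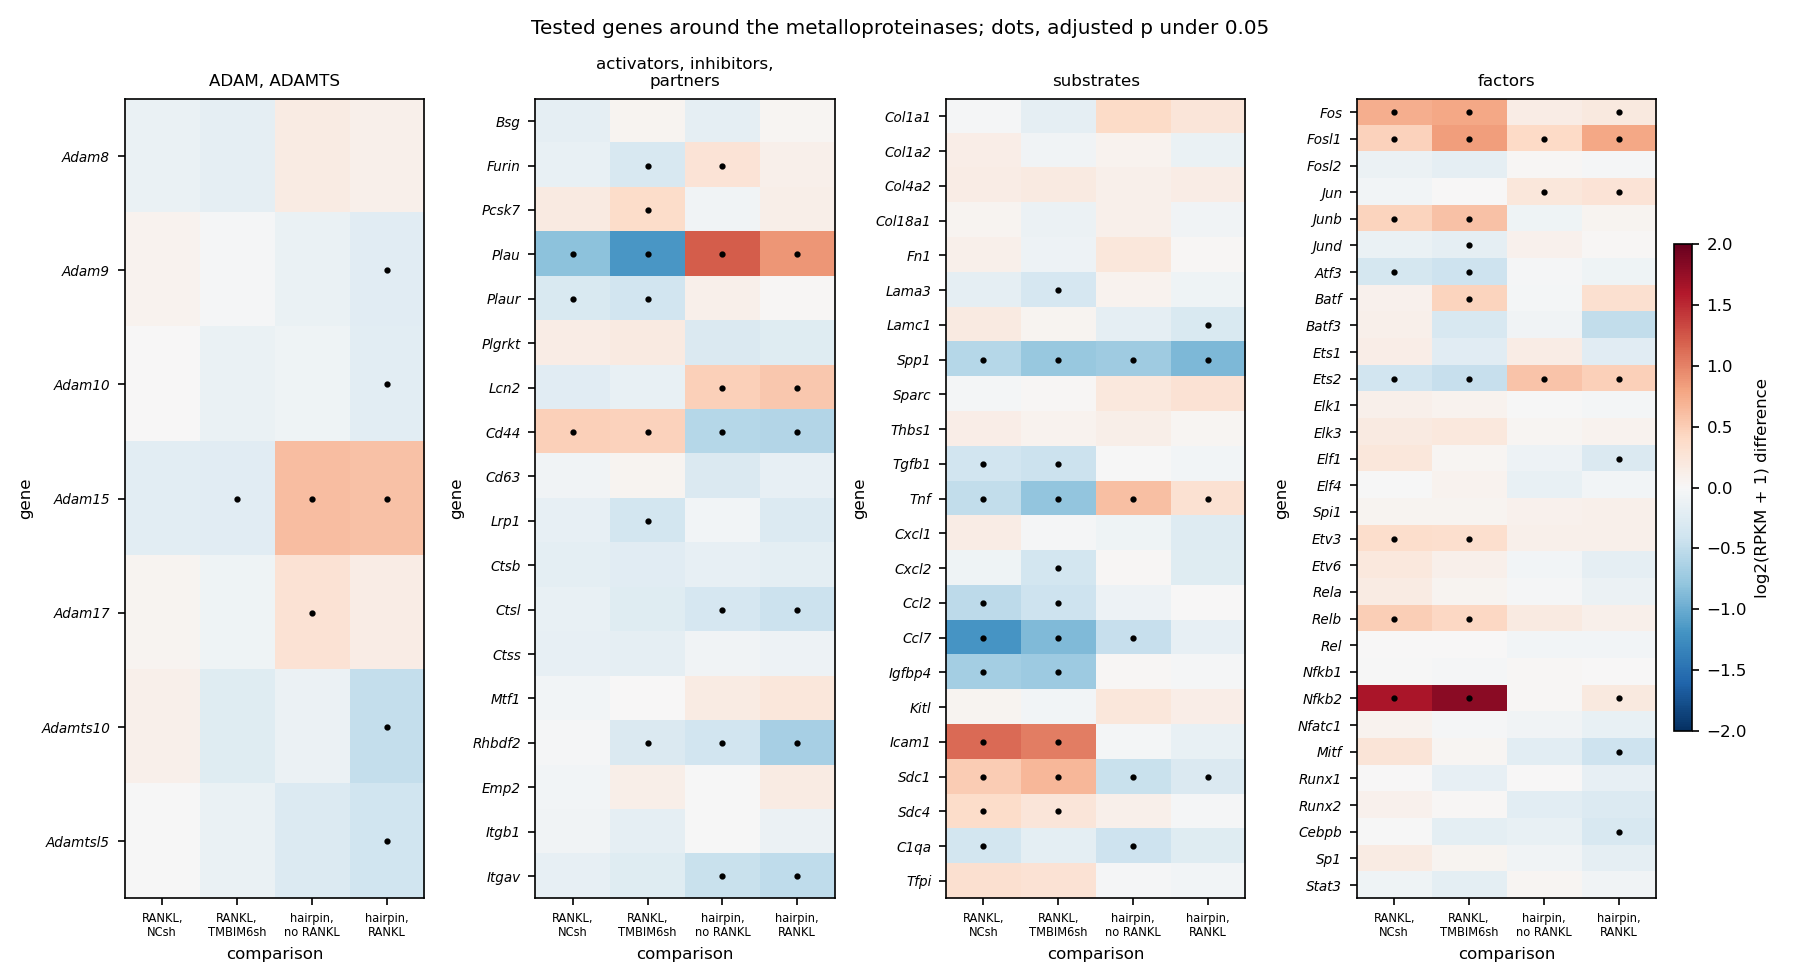
Difference in log2(RPKM + 1) (colour, red higher and blue lower) for the tested genes of 4 lists (vertical axis) in 4 comparisons (horizontal axis), with black dots for an adjusted p under 0.05. Plau is blue in both RANKL columns and red in both hairpin columns, Spp1 is blue throughout, and Nfkb2 is deepest red in the RANKL columns.

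Of 31 factors of the AP-1, ETS, NF-kappaB and related families with known sites in MMP promoters, 30 were tested. RANKL raised 6 and lowered 2 in NCsh libraries and raised 7 and lowered 3 in TMBIM6sh libraries, and the hairpin raised 3 without RANKL and raised 5 and lowered 3 with RANKL. The shares of all tested genes called were 15.0%, 15.4%, 24.2% and 28.6%, so 3 of 30 for the hairpin without RANKL lay below that of all genes. Nfkb2, a precursor subunit of noncanonical NF-kappaB signalling, rose 3.19-fold with RANKL in NCsh libraries (1.63 ± 0.06, adjusted p = 7.76e-07) and 3.61-fold in TMBIM6sh libraries (1.80 ± 0.06, adjusted p = 2.93e-07). The AP-1 subunits Fos and Junb rose with RANKL too, Fos by 0.72 ± 0.06 under NCsh (adjusted p = 0.000105) and by 0.77 ± 0.06 under TMBIM6sh (adjusted p = 3.96e-05). Fos also rose with the hairpin under RANKL, by 0.19 ± 0.06 (adjusted p = 0.0299). Junb rose by 0.44 ± 0.06 under NCsh (adjusted p = 0.00103) and by 0.59 ± 0.06 under TMBIM6sh (adjusted p = 0.000138). Atf3, also on the list, fell with RANKL (-0.358 ± 0.06 under NCsh, adjusted p = 0.00379, and -0.415 ± 0.06 under TMBIM6sh, adjusted p = 0.00143). Jund fell with RANKL under TMBIM6sh (-0.19 ± 0.05, adjusted p = 0.0444), and Jun and Fosl2 were not called with RANKL. With the hairpin Ets2, an ETS factor, rose by 0.56 ± 0.06 without RANKL (adjusted p = 0.000248) and 0.48 ± 0.06 with it (adjusted p = 0.000495), and it fell with RANKL (-0.38 ± 0.06 under NCsh, adjusted p = 0.00362, and -0.46 ± 0.06 under TMBIM6sh, adjusted p = 0.00105). Fosl1, another AP-1 subunit, rose by 0.39 ± 0.10 without RANKL (adjusted p = 0.0166) and by 0.77 ± 0.10 with it (adjusted p = 0.00044), to 5.47 RPKM. It rose with RANKL by 0.45 ± 0.10 under NCsh (adjusted p = 0.0132) and by 0.83 ± 0.10 under TMBIM6sh (adjusted p = 0.000413). Jun rose by 0.22 ± 0.07 with the hairpin without RANKL (adjusted p = 0.0465) and by 0.28 ± 0.07 with it (adjusted p = 0.0152), and Cebpb fell by 0.32 ± 0.08 with the hairpin under RANKL (adjusted p = 0.0109). The medians of the list were 0.09, 0.04, 0.00 and -0.05, near those of all tested genes.

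The genes whose profile over the 8 libraries was most like that of a member were found by the root-mean-square difference of centred log2(RPKM + 1) values. For Mmp12 these were Rgs1 at 0.067, Spp1 at 0.072 and Cd83 at 0.075, where the median over all tested genes was 0.541. Rgs1 had mean levels of 46.3, 32.0, 28.2 and 17.1 RPKM in the groups NCsh, NCsh with RANKL, TMBIM6sh and TMBIM6sh with RANKL. For Mmp9 the nearest were Rnf19b at 0.242, Gpr85 at 0.309 and Serpina3g at 0.31, with a median of 0.877, and Rnf19b had mean levels of 34.8, 68.2, 57.3 and 124 RPKM. Nearest to Timp2 were Slc25a24, Tiparp and Tm7sf3, at 0.04 to 0.045 with a median of 0.268. Nearest to Mmp13 were Tecpr1, Rhob and Arhgap19 (0.102 to 0.116, median 0.463), to Mmp14 Arhgef10l, Srebf2 and Ythdf1 (0.044 to 0.049, median 0.213), and to Mmp19 B4gat1, 2610002M06Rik and Usp7 (0.023 to 0.036, median 0.193). A gene that changes little has small distances to many others, so these values compare within a member only.

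The libraries held 25475000 to 28595000 tags each, 83.5% to 86.4% of them in exons. All 8 macrophage markers reached 1 RPKM, with sums of 9384 to 10784 RPKM in NCsh libraries without RANKL, 9193 to 9270 with RANKL, 8584 to 8590 in TMBIM6sh libraries without RANKL and 7498 to 8113 with RANKL. Lyz2, at 5280 to 8071 RPKM, made up most of each sum. Lyz2, Adgre1 and Cd68 were called in no comparison. With RANKL under NCsh and TMBIM6sh, Csf1r (-0.51 and -0.69), Mertk (-0.57 and -0.81) and Fcgr1 (-1.02 and -0.89) fell. Csf1r (-0.28) and Mertk (-0.46) also fell with the hairpin under RANKL. Itgam fell with RANKL under TMBIM6sh (-0.27) and Cd14 under NCsh (-0.32). Adgre1 rose with RANKL, uncalled (0.105 and 0.204). Of 9 osteoclast markers Acp5, Atp6v0d2 and Dcstamp reached 1 RPKM in some library, while Ctsk, the collagen-cutting cathepsin of mature osteoclasts, stayed at or under 0.075. Calcr and Oscar, also osteoclast markers, stayed at or under 0.04 RPKM. Atp6v0d2, a proton pump subunit, fell in all 4 comparisons of 2 groups, with log2 differences of -0.27 and -0.50 with RANKL under NCsh and TMBIM6sh (adjusted p = 0.0309 and 0.00121) and of -0.54 and -0.77 with the hairpin without and with RANKL (adjusted p = 0.000586 and 7.04e-05). Acp5 and Dcstamp were called in no comparison. In the same order the log2 differences of Acp5 were -0.02, 0.20, -0.22 and 0.001. Those of Dcstamp, at or under 1.61 RPKM, were -0.29, 0.44, -0.64 and 0.10. The sum of the 9 was 69.5 to 80.9 RPKM in NCsh and 62.9 to 72.4 in TMBIM6sh libraries. Most of that sum was Acp5, at 50.9 to 64.7 RPKM. Of 10 stromal markers 2 reached 1 RPKM, and the sum was 2.72 to 3.26 RPKM in NCsh and 3.33 to 3.83 in TMBIM6sh libraries. Of 5 endothelial and 6 dendritic markers 1 each did, Pecam1 and Itgax, and both fell with the hairpin under RANKL (-0.53 ± 0.14, adjusted p = 0.0219, and -0.26 ± 0.07, adjusted p = 0.026). Itgax also fell with RANKL under TMBIM6sh (-0.32 ± 0.07, adjusted p = 0.0155). The endothelial sum was 3.40 to 4.46 RPKM in NCsh and 2.81 to 3.45 in TMBIM6sh libraries, and the dendritic sum 8.78 to 10.8 and 7.59 to 9.32. Markers under 1 RPKM in every library were all 6 of lymphocytes and all 7 of erythroid, mast and basophil cells. The part of these shifts in the MMP and TIMP results was not tested.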

How the data were processed

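RNA of 8 libraries was sequenced. The deposited values are RPKM, computed by the authors with HOMER analyzeRepeats for RefSeq genes of mm10, per the file headers, from exon tags of both strands with isoforms condensed to 1 entry per gene. The column heads say FPKM. HISAT2 and DESeq2 are named in the submitters' processing notes with no version. No value column was left out (0).

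RPKM steps gave whole tags within 0.1 tags for 100% of the values checked, hence the depth. Intervals given are limma 95% intervals and rest on the spread between libraries. Genes with RPKM of at least 1 in 2 libraries (11040) were fitted with limma 3.58.1 (R 4.3.3) on log2(RPKM + 1), 1 mean per group, intensity trend, 4 residual and 5.54 prior degrees of freedom, over 5 comparisons. With 2 libraries against 2 a two-sided permutation p cannot go below 0.333. Duplicates differed beyond sampling noise.

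The members and lists were chosen with earlier results of these data known. Of the lists, 1 gene is not reported here and was left out of the counts. The rule names all members, up to 3 called members per list and comparison with the smallest p, and the 3 most similar profiles per called member. Atf3, Jund and Fosl2 were named outside this rule. Alternatives were a pseudocount of 0.1, no filter, median-ratio scaling, own libraries, a replicate block, no trend and each library left out. limma voom on recovered tags was added after seeing the data.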

Additional observations from a re-analysis of the deposited data

How the results depend on the processing

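Over the 592 alternatives run for the 8 tested genes, 550 kept direction and side of the threshold, 13 lost a call, 5 gained one and 24 changed sign, 0 of them for a called difference. The calls of Mmp9, Mmp12 and Timp2 held in all alternatives run. The lost and gained calls of Mmp13, Mmp14 and Mmp19 stand in the report. With median-ratio scaling the log2 difference became -0.042 for Mmp14 (RANKL in NCsh), 0.019 for Timp1 (hairpin with RANKL) and -0.009 for Timp2 (RANKL in TMBIM6sh). In the main fit these differences were 0.032, -0.029 and 0.015, none of them called. This alternative changed only the scaling of the libraries, by factors of 0.973 to 1.05. Why the factors differ between libraries was not tested. With each library left out in turn, sign changes arose in uncalled differences: Mmp8 ranged from -0.064 to 0.247 (RANKL in TMBIM6sh) and -0.182 to 0.129 (hairpin without RANKL), Mmp14 from -0.085 to 0.148 (RANKL in NCsh) and -0.008 to 0.225 (hairpin without RANKL), Timp1 from -0.112 to 0.343 (RANKL in NCsh), -0.223 to 0.060 (RANKL in TMBIM6sh), -0.059 to 0.395 (hairpin without RANKL) and -0.170 to 0.113 (hairpin with RANKL), and Timp2 from -0.085 to 0.038 (RANKL in NCsh) and -0.048 to 0.078 (RANKL in TMBIM6sh). The interaction ranged from -0.372 to 0.013 for Mmp13, -0.030 to 0.082 for Mmp19, -0.424 to 0.030 for Timp1 and -0.025 to 0.102 for Timp2.

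Counts over all genes, with each library left out, ranged from 694 to 1520 for RANKL in NCsh (1653 with all; lowest without either NCsh library with RANKL, 694 and 887), 826 to 2056 for RANKL in TMBIM6sh (1703; 826 to 1066 without any 1 of its 4), 1396 to 2523 for the hairpin without RANKL (2673; 1401 and 1396 without either TMBIM6sh library), 1870 to 3558 for the hairpin with RANKL (3157; 1870 and 2077 without either NCsh library, 2071 without TMBIM6sh replicate 1) and 0 to 2 for the interaction (1). A fit of the 4 NCsh libraries alone gave 1020 for RANKL in NCsh. The interaction count was 8 with no filter and 2 with no trend. Median-ratio scaling moved the split of 1214 higher and 439 lower genes for RANKL in NCsh to 800 and 836, and that of 986 and 2171 for the hairpin with RANKL to 1580 and 1680. limma voom called 2433, 2236, 3215, 3757 and 1. Same-numbered libraries did not deviate together (correlations -0.0651 to 0.0625), and the main fit did not pair them. With 2 libraries a group, these correlations cannot show whether a number marks the same mouse or culture. With a replicate block the counts were 1608, 1670, 2654, 3128 and 1, and no call of the 8 genes changed. Depth limits Mmp8, Mmp13, Timp1 and Timp3, which had the fewest tags.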
